A study of Mus musculus with 155 samples.

Results

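The genes described here are 31 pan-neuronal genes of the cytoskeleton, of RNA binding and of the synapse. They were taken as a fixed list of gene symbols and matched to the gene identifiers of the count tables, and all 31 were found among the 55471 genes of each table, with Map2 under its older symbol. By role they comprised 13 genes of the cytoskeleton and growth cone, 4 RNA-binding proteins, 3 membrane and adhesion proteins, 8 proteins of vesicle release and 3 transmitter genes. The rule that lists them uses no measured value, but the list was chosen with earlier results of these data known.

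Neurons are built on a specialised cytoskeleton, in which tubulin Tubb3 forms microtubules, Map2, Mapt and Dcx bind and stabilise them, stathmins such as Stmn2 destabilise them, and the neurofilament proteins Nefl, Nefm, Nefh and Ina fill the axon. RNA-binding proteins of the Elavl, Celf and Rbfox families control the stability and splicing of neuronal transcripts. At the synapse, vesicles carrying Vamp2 fuse with a membrane carrying Snap25 and Stx1a when the calcium sensor Syt1 is triggered, under the hold of complexins such as Cplx2. These genes are mostly silent or low outside neurons, and many are held down in other cells by the repressor REST, which binds a DNA element called RE1.

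The study induced an additional copy of histone H3.3, tagged with SNAP and HA, in KH2 mouse embryonic stem cells (ESCs) with doxycycline (Dox), as WT-H3.3, as H3.3K27M (the mutant found in a childhood glioma, which inhibits PRC2) or as H3.3K27L (which removes the same lysine). RNA was measured in 42 libraries. The 32 ESC libraries held the K27M line, the K27L line, WT-H3.3 and WT-H3.3 with the PRC2 inhibitor GSK343, each at 4, 8, 24 and 72 h of Dox in 2 replicates. The 6 libraries of cells differentiated with retinoic acid (RA) held the 3 lines at 24 and 72 h of Dox with 1 library each, and the 4 libraries of ESC-derived oligodendrocyte progenitor cells (OPCs) held WT-H3.3 and H3.3K27M with 1 library each at 24 and 72 h. All cells, controls included, received Dox and kept their endogenous H3.3. The lines are clones selected with hygromycin after insertion at 1 site, so a line and its clone cannot be told apart, and a potential duplication of chromosome 8 is described for all clones. The methods mention feeder fibroblasts grown with the ESCs in another assay and replicates made weeks apart.

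Depth ranged from 68378 to 21161392 counts in the ESC libraries, from 2239137 to 22269533 in RA and from 7499258 to 12387113 in OPC. The shallowest was ESC H3.3K27L at 72 h, replicate 2, in which 1 count was worth 14.9 CPM, and levels over ESCs are given without it, over 31 libraries. CPM here are counts scaled to library size with the TMM factors of all 42 libraries. A gene is called different when its adjusted p was under 0.05 and its change above 2-fold in edgeR's quasi-likelihood test across all genes, with Benjamini-Hochberg adjustment. Tubb3 lies on chromosome 8 and was tested apart, since that chromosome was left out of the other tests because of the possible duplication. The labelled cell types were checked against marker genes. Pou5f1, a core pluripotency factor, was between 477 and 945 CPM in ESCs and at most 5.31 CPM in RA and OPC libraries. The RA libraries, labelled as neural progenitors, held the neural factor Pax6 between 11.5 and 37.9 CPM, and at most 4.17 CPM was measured in ESCs. The 9 neural progenitor markers found in the tables summed to between 108 and 534 CPM in RA, which overlapped the 76.1 to 180 CPM of ESCs. In the RA libraries a list of 8 extraembryonic endoderm markers summed to between 666 and 7085 CPM, against 42 to 161 CPM in ESCs. The 8 fibroblast markers summed to 46.3 to 409 CPM in RA against 1.86 to 12.5 CPM in ESCs, and the 10 oligodendrocyte lineage markers to 73.9 to 348 CPM against 33.8 to 67.9 CPM. Means above 1 CPM were reached by 6 fibroblast markers in RA and 2 in ESCs, but by 4 oligodendrocyte lineage markers in RA and 6 in ESCs. The OPC libraries held Olig2 between 282 and 1054 CPM and Fabp7 between 2848 and 4194 CPM, with Sox10 at most 3.46 CPM and Mbp at most 2.51 CPM.

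Promoter windows are shown for 4 members that stand for the different patterns of level described in the next paragraphs: Gad2 was at or under 1.34 CPM, Syn1 was highest in ESCs, Map2 had the highest CPM in OPCs, and Dcx was near 0 in ESCs but not in RA or OPCs. Each window is 300 bases, 250 before and 50 after the annotated start, 5′ to 3′ on the gene's strand, from RefSeq on GRCm38.p6, and capitals mark any of the 8 motifs searched.
Gad2, plus strand, chr2:22622077-22622376: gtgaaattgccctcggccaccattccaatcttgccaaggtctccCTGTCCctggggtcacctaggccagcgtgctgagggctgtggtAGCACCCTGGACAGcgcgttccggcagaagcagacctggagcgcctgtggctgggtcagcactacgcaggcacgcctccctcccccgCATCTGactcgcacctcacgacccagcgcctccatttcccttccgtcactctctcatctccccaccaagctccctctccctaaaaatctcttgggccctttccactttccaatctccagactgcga
Syn1, minus strand, chrX:20920869-20921168: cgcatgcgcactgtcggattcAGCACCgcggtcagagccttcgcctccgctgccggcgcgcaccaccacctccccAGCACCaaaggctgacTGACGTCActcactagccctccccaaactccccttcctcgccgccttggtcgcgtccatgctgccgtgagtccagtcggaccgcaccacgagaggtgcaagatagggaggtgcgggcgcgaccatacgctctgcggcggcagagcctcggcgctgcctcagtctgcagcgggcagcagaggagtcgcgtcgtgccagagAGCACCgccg
Map2, plus strand, chr1:66175079-66175378: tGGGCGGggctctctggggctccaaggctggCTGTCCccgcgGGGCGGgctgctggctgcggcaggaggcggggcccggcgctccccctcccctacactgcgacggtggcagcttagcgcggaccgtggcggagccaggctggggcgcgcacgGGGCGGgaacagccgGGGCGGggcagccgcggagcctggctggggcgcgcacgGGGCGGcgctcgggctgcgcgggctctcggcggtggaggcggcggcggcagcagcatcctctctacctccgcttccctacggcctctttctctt
Dcx, minus strand, chrX:143933170-143933469: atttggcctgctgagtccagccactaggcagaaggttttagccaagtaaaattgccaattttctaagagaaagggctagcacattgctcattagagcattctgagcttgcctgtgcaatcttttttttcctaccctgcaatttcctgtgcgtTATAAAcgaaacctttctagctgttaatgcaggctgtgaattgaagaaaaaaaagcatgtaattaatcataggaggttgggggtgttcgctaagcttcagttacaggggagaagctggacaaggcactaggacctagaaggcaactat
The search covered both strands for the left part of RE1 (AGCACC, in 16.2% of all 32544 windows), its right part (GGACAG, 22.3%), both parts 2 bases apart (AGCACCNNGGACAG, 0.0522%), the E-boxes CAGCTG (16.4%) and CAGATG (17.1%), the CRE (TGACGTCA, 1.80%), the GC box (GGGCGG, 35.9%) and the TATA box (TATAAA, 13.6%). Of the members, 19 had 28 windows. Both RE1 parts 2 bases apart were found in 17 of all windows and, among the members, in that of Gad2, the enzyme GAD65 that makes GABA at synapses. The CRE was found in the Syn1 window, which also held 3 left RE1 parts, 33 CpG dinucleotides and a GC content of 68.3%. The Map2 window held 5 GC boxes and 37 CpG, while the Dcx window held a TATA box, 3 CpG and a GC content of 43.0%, beside medians over all windows of 7 CpG and 53.0%. The median over the member windows was 11.5 CpG. A match describes letters and not a bound site.

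Across the 3 stages the members did not move as a block: Nefl, Nefh, Ina, Stmn2 and Tubb3 were highest in ESCs, whereas the RNA-binding and most vesicle release genes were highest in OPCs. By mean CPM, 18 of the 31 members were highest in OPCs, 10 in ESCs and 3 in RA, and the same numbers were obtained without TMM scaling. All 4 RNA-binding genes and 6 of the 8 vesicle release genes were highest in OPCs, whereas 7 of the 13 cytoskeletal genes were highest in ESCs. Mean levels above 10 CPM were reached by 10 members in ESCs, 9 in RA and 19 in OPCs. In bulk RNA, fewer cells that express a gene and less RNA per cell cannot be told apart.

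**Figure D1:**
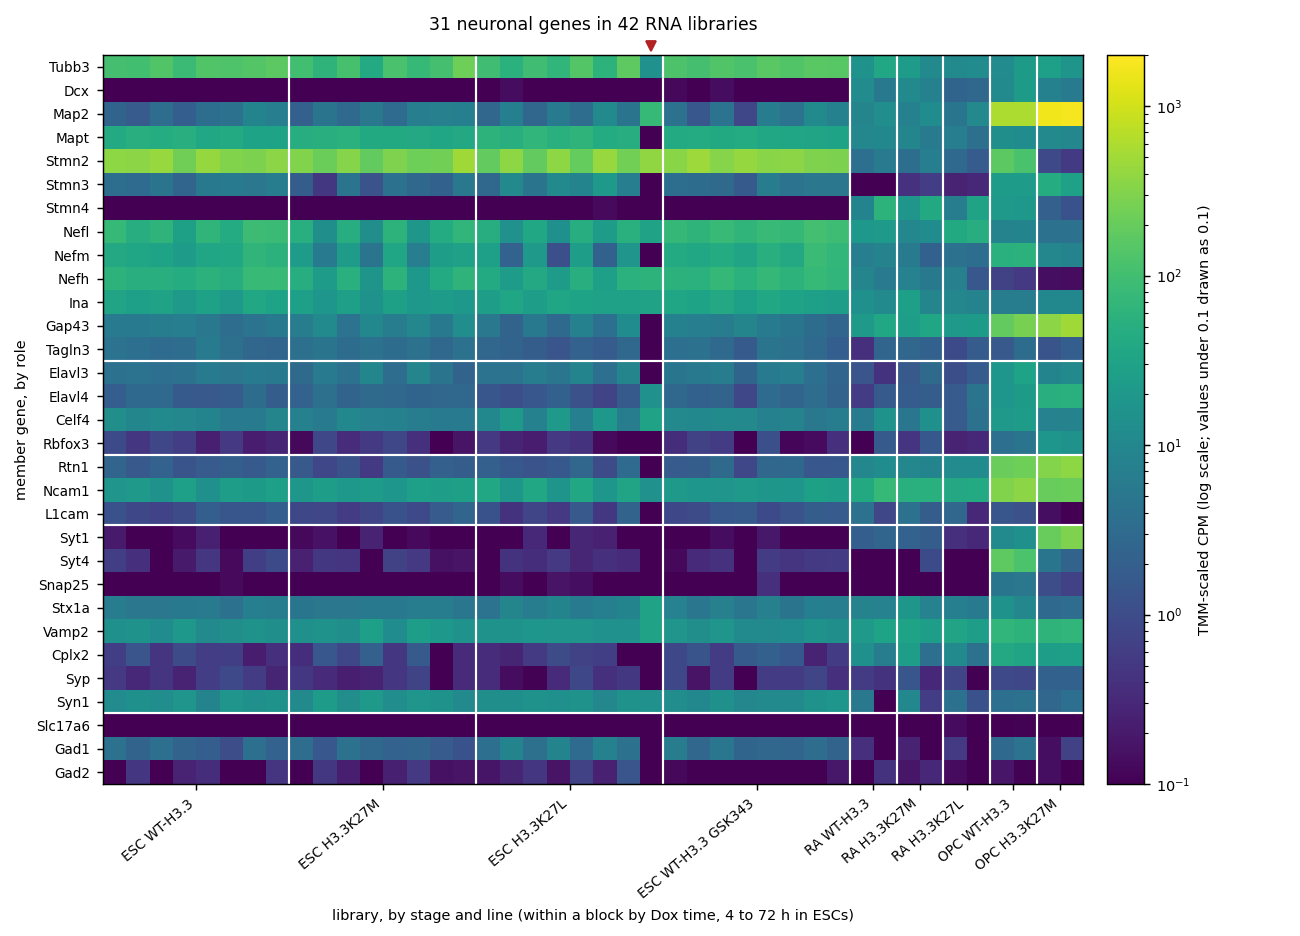
Level of each of the 31 members (rows, grouped by role: cytoskeleton, RNA-binding, membrane and adhesion, vesicle release, transmitter) in each of the 42 RNA libraries (columns) as TMM-scaled CPM on a logarithmic colour scale. Stmn2 and the neurofilaments are bright in the ESC blocks, Map2, Gap43 and Rtn1 in the OPC blocks, and the red triangle marks the shallow ESC H3.3K27L library.

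Among the microtubule regulators, Stmn2, which destabilises microtubules in growth cones, ranged from 186 to 478 CPM with a median of 325 over the ESC libraries. In RA it ranged from 1.79 to 7.02 CPM over 6 libraries. The OPC libraries split by line, with 163 and 115 CPM in WT-H3.3 and 0.877 and 0.548 CPM in H3.3K27M. Every ESC library, the shallow one included, was thus above every RA and OPC library. Its relative Stmn3 was between 0.496 and 20.5 CPM in ESCs, at most 0.610 CPM in RA and between 23.5 and 46.8 CPM in OPCs. Stmn4, also of the stathmin family, was at 0 in all but 1 of the 31 ESC libraries, between 6.37 and 59.5 CPM in RA and between 1.23 and 20.6 CPM in OPCs. The 3 stathmins thus had their highest mean in 3 different stages.

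Tubb3, the neuronal beta-tubulin, had 117 ± 39.5 CPM (SD, n = 31) in ESCs, 18.4 ± 10.1 (n = 6) in RA and 19.3 ± 6.12 (n = 4) in OPCs. It shares its strand and position with an annotated readthrough gene, so its counts may be split. Map2, a dendritic microtubule-associated protein, ranged from 0.821 to 11.3 CPM in ESCs and from 4.64 to 13.0 in RA. In OPCs it reached 584 and 589.7 CPM in WT-H3.3 and 1619 and 1747 CPM in H3.3K27M, so all OPC libraries were far above all others. Mapt, the axonal protein tau, was highest in ESCs instead, with 44.3 ± 9.09 CPM (SD, n = 31) in ESCs, 7.65 ± 2.53 (n = 6) in RA and 11.5 ± 1.82 (n = 4) in OPCs. Dcx, which stabilises microtubules of migrating neuroblasts, was at most 0.140 CPM in ESCs, between 2.39 and 11.7 CPM in RA and between 5.75 and 22.2 CPM in OPCs. Its RA and OPC ranges overlapped and neither overlapped the ESC range.

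All 4 neurofilament subunits were expressed in ESCs. Nefl, the light chain, had 54.6 ± 25.4 CPM (SD, n = 31) in ESCs, 25.4 ± 15.8 (n = 6) in RA and 6.31 ± 2.55 (n = 4) in OPCs. Nefh, the heavy chain, had 51.1 ± 17.6, 6.24 ± 2.67 and 0.381 ± 0.287 CPM in the same order. Ina, alpha-internexin, had 27.9 ± 5.91, 13.4 ± 7.14 and 8.27 ± 2.06 CPM. Nefm, the medium chain, departed from this order: it had 31.2 ± 20.1 CPM in ESCs and 5.21 ± 2.32 in RA, but in OPCs 53.8 and 58.2 CPM in WT-H3.3 and 9.65 and 8.49 CPM in H3.3K27M. Nefl and Nefm lie on opposite strands within 1 annotated region, and the strand setting of the counting is not given in the sources used here. Of the growth cone genes, Gap43, a substrate of protein kinase C, had 6.39 ± 2.73 CPM in ESCs, 26.6 ± 7.54 in RA and 325 ± 130 in OPCs, with no overlap between stages. Tagln3, an actin-binding protein, stayed between 0.391 and 6.20 CPM in all libraries but the shallow one, with means of 3.25, 1.73 and 2.05 CPM.

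The RNA-binding genes were low in ESCs and RA and higher in OPCs. Elavl4 (HuD), which stabilises AU-rich transcripts, ranged from 0.758 to 3.80 CPM in ESCs and from 0.586 to 4.48 in RA, and in OPCs it was at 18.3 and 21.9 CPM in WT-H3.3 and at 50.9 and 54.7 CPM in H3.3K27M. Rbfox3, the splicing regulator known as NeuN, was at most 1.12 CPM in ESCs and 1.68 in RA, and between 3.76 and 18.3 CPM in OPCs. Both genes thus had all 4 OPC libraries above all others. Elavl3 (HuC) had 5.17 ± 1.94 CPM (SD, n = 31) in ESCs, 1.54 ± 0.879 (n = 6) in RA and 17.3 ± 10.2 (n = 4) in OPCs. Celf4, a splicing and translation regulator, had 9.48 ± 3.97, 7.76 ± 5.83 and 15.4 ± 8.33 CPM, and its ranges in the 3 stages overlapped.

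Of the membrane genes, Rtn1, a neuronal reticulon of the endoplasmic reticulum, ranged from 0.538 to 3.17 CPM in ESCs, from 8.85 to 12.6 in RA and from 211 to 369 in OPCs. Ncam1, the neural cell adhesion molecule, ranged from 14.2 to 37.9, from 39.1 to 75.0 and from 201 to 352 CPM. Both were ordered as ESC, RA, OPC with no overlap between stages. L1cam, an axonal adhesion molecule, was between 0 and 4.26 CPM everywhere outside the shallow library and overlaps another annotated gene on its strand.

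At the vesicle, the calcium sensor Syt1 was at most 0.317 CPM in ESCs and between 0.299 and 2.52 CPM in RA. In OPCs it was at 11.1 and 14.6 CPM in WT-H3.3 and at 198 and 289.6 CPM in H3.3K27M. Syt4, a synaptotagmin that does not bind calcium in the usual way, was at most 0.935 CPM in ESCs and 0.916 in RA. In OPCs its order of lines was the opposite, with 172 and 119.975 CPM in WT-H3.3 and 4.68 and 2.33 CPM in H3.3K27M. Vamp2, the vesicle SNARE, had 15.7 ± 3.47 CPM (SD, n = 31) in ESCs, 27.8 ± 4.43 (n = 6) in RA and 64.6 ± 3.68 (n = 4) in OPCs. Of its partners on the target membrane, Snap25 was at most 0.375 CPM in ESCs and 0.0448 in RA and between 0.685 and 5.03 CPM in OPCs, whereas Stx1a overlapped between stages at 6.18 ± 1.37, 9.33 ± 4.68 and 7.98 ± 6.11 CPM. Cplx2, a complexin, was at most 2.06 CPM in ESCs, between 3.66 and 24.8 CPM in RA and between 25.3 and 40 CPM in OPCs. Syn1, which tethers vesicles to actin, went the other way with 14.4 ± 3.44 CPM in ESCs, 3.54 ± 3.80 in RA and 3.49 ± 0.593 in OPCs, and it spans an annotated gene on the other strand, Timp1. Syp, a vesicle membrane protein, stayed at or under 2.19 CPM outside the shallow library.

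Of the transmitter genes, Slc17a6 and Gad2 were near the counting floor and Gad1 was above it in ESCs. Slc17a6, the vesicular glutamate transporter VGLUT2, had 0 counts in all 32 ESC libraries, 1 count in RA and 2 in OPCs. Gad2 was at most 1.34 CPM in ESCs, 0.419 in RA and 0.179 in OPCs. Gad1, the enzyme GAD67, ranged from 1.02 to 8.85 CPM in ESCs, was at most 0.531 CPM in RA and was between 0.146 and 4.40 CPM in OPCs. Per kilobase of exon annotated on NCBIM37 (mm9), on which genes may be compared within a stage, Stmn2, Tubb3 and Nefl stood highest in ESCs (167, 62.5 and 16.2 CPM per kb). In RA they were Gap43, Stmn4 and Tubb3 (17.5, 14.2 and 9.86), and in OPCs Gap43, Rtn1 and Map2 (213, 69.8 and 69.0). A 3′ kit, 1 of the 2 kits named by the labels, yields tags without regard to length, and the kit of each library is not given in the sources used here.

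The stage comparisons ask which of these genes follow differentiation. All 42 libraries entered 1 fit, and stage cannot be told apart from anything else that differed between the 3 tables, library kit included. At 24 h of Dox, RA against ESC libraries (3 against 6) had 19 of 28 tested members called, 7 higher and 12 lower, in a comparison where 42.3% of all 16370 genes tested were called (23.7% higher and 18.6% lower). At 72 h, 18 were called, 8 higher and 10 lower, beside 56.8% of all genes (26.4% higher and 30.4% lower). The median log2 fold change of the members was -0.64 at 24 h and -0.47 at 72 h, beside 0.04 and -0.15 over all genes. OPC against ESC libraries (4 against 8) had 24 of 28 called, 17 higher and 7 lower, beside 66.8% of all genes (30.8% higher and 36% lower), with medians of 1.99 for the members and -0.15 for all genes. OPC against RA libraries had 20 called, 16 higher and 4 lower, beside 43% of all genes (20% higher and 23% lower), with medians of 1.60 and -0.12. These comparisons share libraries and are not independent of each other.

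**Figure D2:**
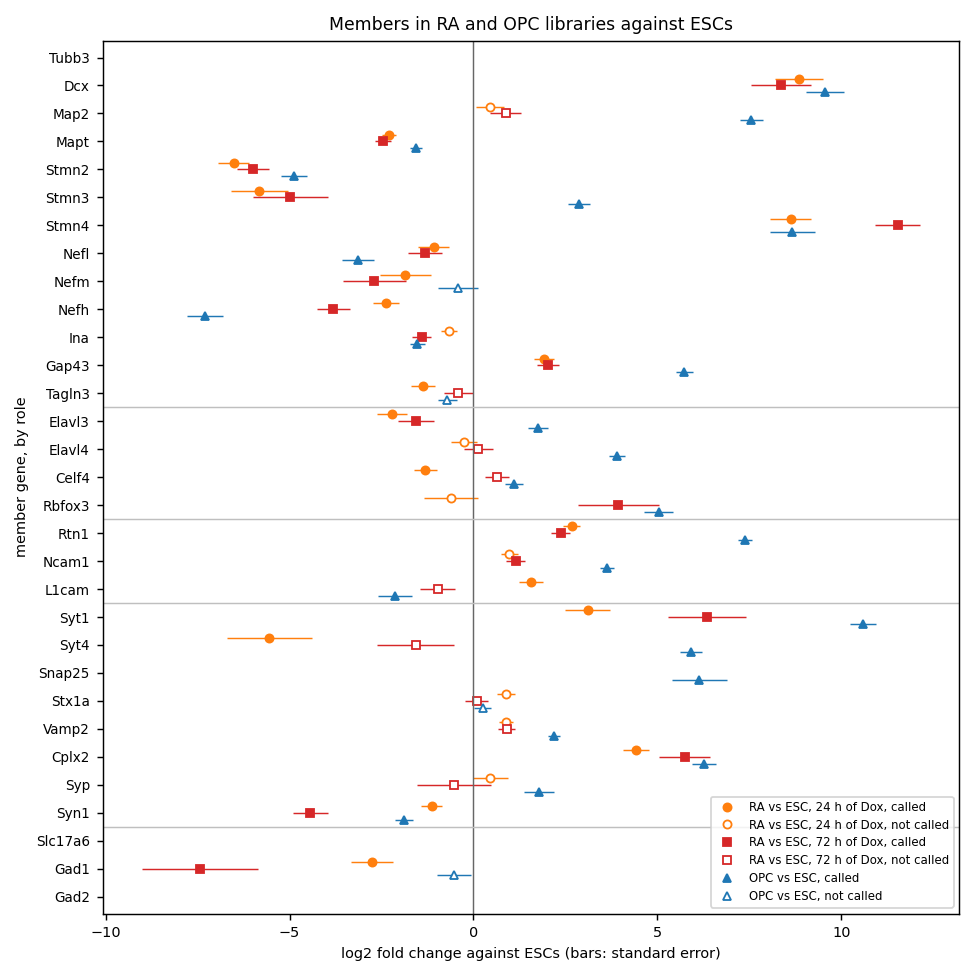
Log2 fold change against ESCs (horizontal axis, bars are standard errors) of each member with a finite standard error, for RA at 24 h and 72 h of Dox and for OPCs; filled symbols are called. Stmn2, Mapt and the neurofilaments lie left of 0, Dcx, Stmn4, Rtn1, Cplx2 and Syt1 right of 0.

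In RA the cytoskeletal genes divided. Called lower at both Dox times were Stmn2, Stmn3, Mapt, Nefl, Nefm and Nefh, and called higher at both were Dcx, Stmn4 and Gap43. Stmn2 fell by 6.52 ± 0.42 on the log2 scale at 24 h (adjusted p = 6.28e-14) and by 6.0 ± 0.44 at 72 h (adjusted p = 6.27e-13). Mapt fell by 2.30 ± 0.19 (adjusted p = 1.54e-11) and by 2.45 ± 0.23 (adjusted p = 8.55e-11). Dcx had 0 counts in the 6 ESC libraries of either time and was at least 150-fold higher in RA at 24 h and at least 75.4-fold higher at 72 h, taking 3 counts over the ESC group as the floor. Stmn4 had 1 count in ESCs at 24 h, which gave a ratio of 659 (95% counting interval 118 to 26094), and 0 at 72 h, which gave at least 605-fold. The calls of Nefl and Nefm were the least firm: at 24 h either was lost without any of the 3 RA libraries and without replicate 1 of H3.3K27M or H3.3K27L in ESCs, where Nefl ranged from -0.75 to -1.14 and Nefm from -1.03 to -2.47. At 72 h Nefl was lost without the RA library of WT-H3.3 (-1.27, adjusted p = 0.0669) and Nefm without that of H3.3K27M (-2.36, adjusted p = 0.0554). Nefl was also not called by DESeq2 at 24 h (-0.999) or 72 h (-0.93), nor with its type of size factors (-0.998 and -0.97). With the replicate block Nefl lost its call at 24 h (-0.993). DESeq2 did not call Stmn4 at either time (adjusted p = 0.269 and 0.190), though no RA and ESC library overlapped.

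The other roles moved as follows in RA. Rtn1 rose by a log2 fold change of 2.67 ± 0.22 at 24 h (adjusted p = 2.13e-11) and 2.38 ± 0.26 at 72 h (adjusted p = 3.35e-09), with no overlap of RA and ESC libraries. Cplx2 rose by 4.43 ± 0.35 (adjusted p = 8.32e-12) and 5.74 ± 0.70 (adjusted p = 3.11e-08), and Syt1 by 3.10 ± 0.60 at 24 h (adjusted p = 9.97e-05). At 72 h Syt1 had 0 counts in ESCs and was at least 20.9-fold higher in RA. Ncam1 was called at 72 h (1.15 ± 0.25, adjusted p = 2.05e-04) and L1cam at 24 h (1.56 ± 0.32, adjusted p = 1.01e-04), while at the other time they had 0.98 and -0.98. Those values lay near the thresholds: Ncam1 was called at 24 h in DESeq2 (1.07), with its type of size factors (1.07) and without any of 4 single libraries (1.04 to 1.24), and L1cam was called lower at 72 h without any of 7 single libraries (-1.09 to -1.74). The Ncam1 call was lost without the RA library of WT-H3.3 at 72 h (0.85, adjusted p = 0.0214). Elavl3 fell by 2.22 ± 0.41 (adjusted p = 2.97e-05) and by 1.57 ± 0.49 (adjusted p = 0.00569), the latter lost without the RA library of WT-H3.3 (-1.10, adjusted p = 0.105), and Celf4 fell at 24 h by 1.3 ± 0.32 (adjusted p = 8.21e-04). Syn1 fell by 1.14 ± 0.28 at 24 h (adjusted p = 6.78e-04) and by 4.43 ± 0.48 at 72 h (adjusted p = 2.88e-09). Gad1 fell by 2.75 ± 0.57 at 24 h (adjusted p = 1.47e-04) and had 0 counts in RA at 72 h, at least 8.24-fold lower than in ESCs. Syt4 had 20 counts in ESCs and 1 in RA at 24 h, a ratio of 14.8 (95% counting interval 2.37 to 615), and its call was lost without the RA library of H3.3K27M. Gad1 was lost at 24 h without any of the 3 RA libraries (-2.56 to -3.02, adjusted p = 1.00). Rbfox3 rose at 72 h by 3.94 ± 1.09 (adjusted p = 0.00213), a call that was lost without the RA library of WT-H3.3 at that time (2.11, adjusted p = 1.00).

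Without ESC H3.3K27L replicate 1 at 72 h, that line and time rest on the shallow library alone, and 11 of the 18 calls at 72 h were made. In that fit Mapt (1.28), Elavl3 (1.39) and Nefm (0.58), called lower with all libraries, had the other sign. Leaving out the shallow library instead gave 19. The sums of the extraembryonic endoderm, fibroblast and oligodendrocyte lineage markers moved with the RA group, as given at the opening, and their part in these differences was not tested. Syn1 at 24 h lost its call without the H3.3K27L RA library (-0.29, adjusted p = 0.778) or without ESC WT-H3.3 replicate 2 (-0.97, adjusted p = 0.00311), and L1cam lost it without the former (1.04, adjusted p = 0.244). Tagln3, called lower at 24 h (-1.37 ± 0.34, adjusted p = 7.81e-04), lost its call without the RA library of WT-H3.3 (-0.83, adjusted p = 0.0938). With chromosome 8 kept, Tubb3 fell in RA by 2.67 ± 0.38 at 24 h (adjusted p = 5.64e-07) and by 3.04 ± 0.41 at 72 h (adjusted p = 1.45e-07).

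In OPCs against ESCs, all 4 RNA-binding genes and 6 of the 8 vesicle release genes were called higher, and the cytoskeletal genes divided into 5 higher and 5 lower. Map2 rose by 7.56 ± 0.30 on the log2 scale (adjusted p = 1.24e-19) and Gap43 by 5.73 ± 0.23 (adjusted p = 1.60e-19). Nefh fell by 7.30 ± 0.49 (adjusted p = 3.08e-14) and Stmn2 fell by 4.87 ± 0.36 (adjusted p = 2.86e-13), the latter as a mean over OPC lines that differ. Elavl4 rose by 3.91 ± 0.21 (adjusted p = 1.67e-16) and Rbfox3 by 5.03 ± 0.40 (adjusted p = 2.42e-12). Rtn1 had the lowest adjusted p of the members, with a rise of 7.38 ± 0.18 (adjusted p = 2.88e-24), and Ncam1 rose by 3.64 ± 0.20 (adjusted p = 2.04e-16). Syt1 had 3733 counts in OPCs and 3 in the ESC libraries compared, a ratio of 2483 (95% counting interval 849 to 12044). Most of those OPC counts came from H3.3K27M, so the ratio pools OPC lines that differ. Cplx2 rose by 6.26 ± 0.32 (adjusted p = 8.85e-17). Syn1 fell by 1.88 ± 0.25 (adjusted p = 6.80e-08) and L1cam by 2.12 ± 0.46 (adjusted p = 1.16e-04). With chromosome 8 kept, Tubb3 fell by 2.78 ± 0.33 (adjusted p = 5.53e-09). The call of Celf4 sat at the fold threshold and was lost in 13 of the fits that left out 1 library, with 0.91 without WT-H3.3 ESC replicate 1 at 72 h. It was also lost in a fit of the OPC and ESC libraries alone (0.999). DESeq2 did not call Stmn4 (8.42, adjusted p = 0.165).

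Against RA, OPC libraries of the same lines (4 against 4) had 3 of the 4 RNA-binding and 6 of the 8 vesicle release genes called higher and none of either role called lower. Elavl4 rose by 4.56 ± 0.31 (adjusted p = 2.53e-13) and Elavl3 by 3.43 ± 0.40 (adjusted p = 1.60e-08). Map2 rose by 6.64 ± 0.40 (adjusted p = 1.33e-14), Gap43 by 3.49 ± 0.28 (adjusted p = 6.13e-12), Rtn1 by 4.80 ± 0.21 (adjusted p = 1.87e-17) and Ncam1 by 2.32 ± 0.25 (adjusted p = 2.28e-09). Syt4 rose by 8.83 ± 0.54 (adjusted p = 8.90e-14) and Syt1 by 4.77 ± 0.30 (adjusted p = 1.77e-12), each as a mean over OPC lines that differ. The members called lower were Nefh (-4.32 ± 0.62, adjusted p = 6.94e-07), Stmn4 (-2.11 ± 0.32, adjusted p = 3.53e-05), L1cam (-2.69 ± 0.53, adjusted p = 6.06e-05) and Nefl (-1.28 ± 0.47, adjusted p = 0.0194). Stmn4 was not called by DESeq2 (adjusted p = 0.801), and its libraries overlapped. Nefl and Nefm (2.05 ± 0.71, adjusted p = 0.0137) each lost their call without the RA library of WT-H3.3 at 24 h (-1.24 and 1.81), Nefl also without the H3.3K27M OPC library of 72 h (-1.25) and Nefm without the RA library of H3.3K27M at 72 h (1.76). Syp (1.53 ± 0.57, adjusted p = 0.0225) lost its call without any of 6 libraries (0.86 to 1.56). Gad1 rose by 4.39 ± 1.19 (adjusted p = 0.00228), from a level in RA near the floor, and lost its call without the H3.3K27M OPC library of 72 h (3.66, adjusted p = 0.0841).

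Of 77 other neuronal genes of the same roles found in the tables, 68 were tested between stages. In OPCs against ESCs, 40 were called higher and 14 lower, beside 30.8% and 36% of all genes, with a median log2 fold change of 2.13. In RA at 24 h, 29 were called higher and 9 lower (median 0.67), beside 23.7% and 18.6% of all genes. At 72 h, 21 were called higher and 17 lower (median -0.03), beside 26.4% and 30.4% of all genes. At 24 h of RA the related genes thus had a positive median and the members a negative one.

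The comparison of OPC lines asks how these genes differ between the H3.3K27M and WT-H3.3 lines, which are also separate clones. The members divided sharply by line: Stmn2, Syt4, Nefm and Stmn4 were lower in H3.3K27M by several fold or more, whereas Syt1, Map2, Elavl4 and Rbfox3 were higher. With 2 libraries a line, 16 of 26 tested members were called, 5 higher and 11 lower, in a comparison where 27.9% of all 12467 genes tested were called (12.9% higher and 15% lower). The median log2 fold change was -0.54 over the members and 0.00 over all genes. The lines did not overlap for any of the 16 called members, but with 2 libraries a line a call above 2-fold nearly entails this. It adds no support to the calls. The libraries of a line came from 24 and 72 h of Dox, so the spread within a line holds the difference of Dox time, and p-values measure only the spread between these libraries.

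**Figure D3:**
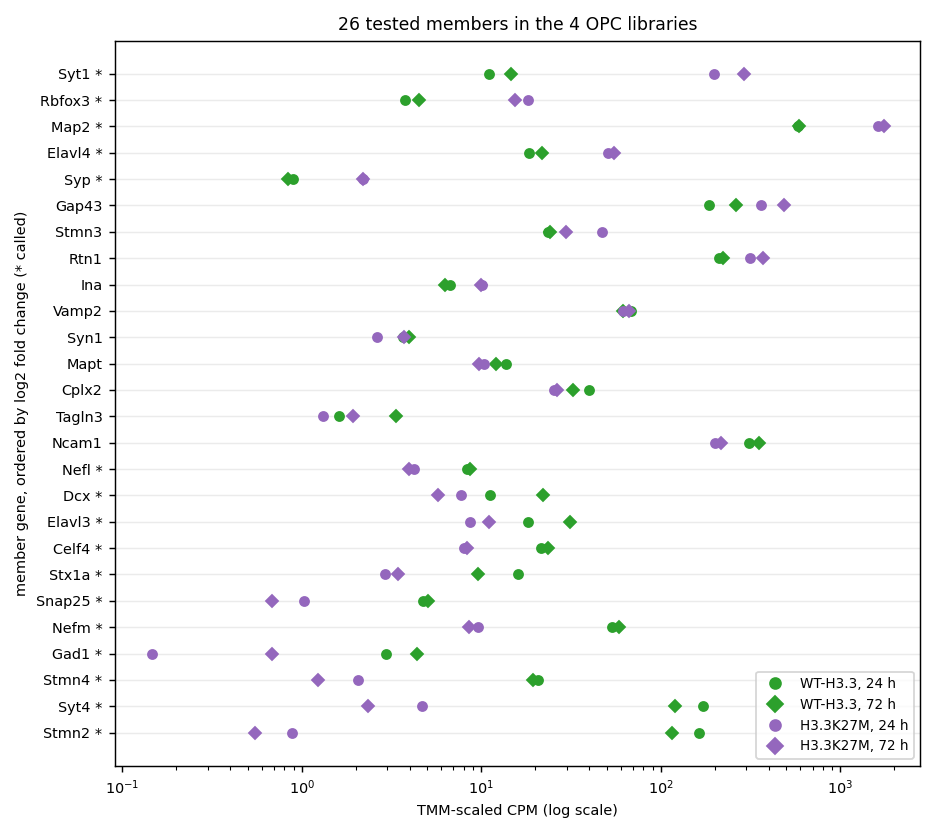
TMM-scaled CPM (logarithmic axis) of the 26 tested members in the 4 OPC libraries; green symbols are WT-H3.3, purple symbols H3.3K27M, circles 24 h and diamonds 72 h of Dox, and an asterisk marks the 16 called members. The widest gaps between lines are those of Stmn2 and Syt4 (higher in WT-H3.3) and Syt1 (higher in H3.3K27M).

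Stmn2 fell in H3.3K27M by 7.59 ± 0.30 on the log2 scale (adjusted p = 3.69e-08), from 163 and 115 CPM to 0.877 and 0.548 CPM. Nefm fell by 2.63 ± 0.18 (adjusted p = 1.07e-06) and Stmn4 fell by 3.61 ± 0.30 (adjusted p = 3.42e-06), from 20.6 and 19.4 CPM to 2.05 and 1.23 CPM. Nefl was also lower, at 8.32 and 8.70 CPM in WT-H3.3 against 4.24 and 3.97 CPM. Dcx went from 11.2 and 22.2 CPM to 7.75 and 5.75 CPM. Map2 was the cytoskeletal member called higher, by 1.52 ± 0.13 (adjusted p = 5.05e-06). Stmn3 (23.5, 24.0, 46.8 and 29.5 CPM, WT-H3.3 before H3.3K27M) and Gap43 (186, 263, 363 and 486 CPM) were higher in both H3.3K27M libraries without passing the fold threshold. Mapt had 13.8, 12.2, 10.4 and 9.73 CPM in the same order. The stathmins and microtubule binders thus took different directions within the same 4 libraries.

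The RNA-binding genes split into pairs. Elavl4 rose by 1.39 ± 0.17 (adjusted p = 5.68e-05) and Rbfox3 by 2.02 ± 0.25 (adjusted p = 6.79e-05), the latter from 3.76 and 4.51 CPM to 18.3 and 15.3 CPM. Celf4 fell by 1.46 ± 0.21 (adjusted p = 1.77e-04), from 21.4 and 23.7 CPM to 8.04 and 8.36 CPM, and Elavl3 fell by 1.33 ± 0.28 (adjusted p = 0.00235), from 18.2 and 31.3 CPM to 8.63 and 11.1 CPM. Elavl3 and Elavl4, close paralogs, thus moved in opposite directions, and how reads shared by them were counted is not given in the sources used here. Of the membrane genes, Rtn1 (211, 222, 315 and 369 CPM) and Ncam1 (309.9, 352, 201 and 218 CPM) did not pass the fold threshold.

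Among the vesicle genes, Syt1 rose by 4.25 ± 0.22 (adjusted p = 1.92e-07), from 11.1 and 14.6 CPM to 198 and 289.6 CPM. Syt4 fell by 5.39 ± 0.28 (adjusted p = 1.92e-07), from 172 and 119.975 CPM to 4.68 and 2.33 CPM. Both synaptotagmins were thus far outside the spread within a line, in opposite directions. The target-membrane SNAREs were lower in H3.3K27M: Stx1a fell by 2.01 ± 0.32 (adjusted p = 3.88e-04), from 15.9 and 9.64 CPM to 2.92 and 3.43 CPM, and Snap25 was called lower from 4.74 and 5.03 CPM to 1.02 and 0.685 CPM. Their vesicle partner Vamp2 had 68.6 and 61.2 CPM in WT-H3.3 and 61.7 and 66.7 CPM in H3.3K27M, with a log2 fold change of -0.02. Syp rose by 1.32 ± 0.45 (adjusted p = 0.0296) at levels of 0.894 and 0.838 against 2.19 and 2.19 CPM. Gad1 fell by 3.07 ± 0.60 (adjusted p = 0.00137), from 2.95 and 4.40 CPM to 0.146 and 0.685 CPM.

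The calls of Syp, Nefl, Dcx and Elavl3 depended on single libraries. Syp was lost in each of the 4 fits that left out 1 library (log2 fold change 1.28 to 1.34) and in DESeq2 (adjusted p = 0.193). Dcx (-0.72, adjusted p = 0.0909) and Elavl3 (-0.88, adjusted p = 0.0106) were lost without the 72 h library of WT-H3.3, and Nefl (-0.99, adjusted p = 0.0239) without the 72 h library of H3.3K27M. Gap43 was called without the former (1.19, adjusted p = 1.41e-07) or without the 24 h library of H3.3K27M (1.10, adjusted p = 3.58e-06). L1cam, left out by the filter on low counts, was at 1.43 and 1.15 CPM in WT-H3.3 and at 0.146 and 0 CPM in H3.3K27M.

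Markers of other cell types moved with the line. A list of 8 fibroblast markers summed to 577 and 632 CPM in the WT-H3.3 OPC libraries and to 24.8 and 28.5 CPM in H3.3K27M, with Col1a1 at 164 to 170 CPM against 2.47 to 4.53 CPM. The astrocyte marker Gfap was at 24.4 to 34.3 CPM in WT-H3.3 and at most 0.292 CPM in H3.3K27M, while the 7 astrocyte markers together summed to 884 to 885 CPM and 971 to 1353 CPM. The 10 oligodendrocyte lineage markers summed to 531 to 562 CPM in WT-H3.3 and 1778 to 1986 CPM in H3.3K27M, with Olig2 at 282 to 339 CPM and 1013 to 1054 CPM. The list did not rise as a whole: 8 of the 10 had a mean above 1 CPM in WT-H3.3 and 5 in H3.3K27M, with 4 above 10 CPM in each. The 10 pluripotent markers summed to 115 and 104 CPM in WT-H3.3 and to 22.4 and 23.7 CPM in H3.3K27M, and the 8 extraembryonic endoderm markers to 150 and 195 CPM and to 28.5 and 24.1 CPM. The sums of the 6 neural crest markers overlapped, at 596 to 769.8 and 646 to 759 CPM, with 1 of the 6 above 10 CPM on average in each line. The part of these marker lists in the members' differences was not tested.

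Of the related neuronal genes, 59 were tested between the OPC lines, and 15 were called higher and 9 lower, beside 12.9% and 15% of all genes. Called lower in H3.3K27M were Prph, a neurofilament of peripheral neurons (-4.14), Dnm1, the dynamin of vesicle uptake (-2.91), Kif5c, an axonal motor (-2.66), Sv2b (-2.35), Map1b (-2.34), Map6 (-2.03), Rbfox1 (-1.90), Nrcam (-1.59) and Dpysl5 (-1.18). Called higher were 15, among them Syt13 (3.19), Stmn1, the broadly expressed stathmin (2.16), Elavl2 (1.51) and the splicing factors Nova1 (1.16) and Nova2 (1.27). Their median was 0.08.

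Whether the H3.3K27M difference in OPCs exceeded that in ESCs was tested as an interaction over all libraries. The difference between the stage changes of the lines was called for 5 of 28 members, all lower in H3.3K27M, beside 14.3% of all 16370 genes tested (5.99% higher and 8.29% lower). They were Stmn2 (-7.44 ± 0.69, adjusted p = 5.20e-09), Syt4 (-4.79 ± 1.00, adjusted p = 9.34e-04), Stx1a (-1.996 ± 0.46, adjusted p = 0.00236), L1cam (-3.78 ± 0.94, adjusted p = 0.00437) and Gad1 (-2.90 ± 0.90, adjusted p = 0.0236). Syt1 had an interaction of 4.69, for which edgeR gave no standard error and no call, and was called by DESeq2 (4.27, adjusted p = 0.0152). Gad1 lost its call without any of 3 libraries, with -2.21 (adjusted p = 0.182) without the H3.3K27M OPC library of 24 h, -2.58 (adjusted p = 0.0910) without the 72 h OPC library of WT-H3.3 and -2.77 (adjusted p = 0.0548) without ESC H3.3K27M replicate 1 at 72 h. L1cam lost it without the H3.3K27M OPC library of 72 h (-2.87, adjusted p = 0.0739).

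In RA the members changed between 24 and 72 h of Dox in both directions, with Stmn4, Celf4 and Map2 higher and Syn1, Cplx2 and L1cam lower at 72 h. Of 19 tested members 6 were called, 3 in each direction, beside 42.9% of all 12233 genes tested (20% higher and 22.9% lower). The median was 0.24 over the members and -0.07 over all genes. Dox time cannot be told apart from time in RA, and the 24 h libraries were deeper.

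**Figure D4:**
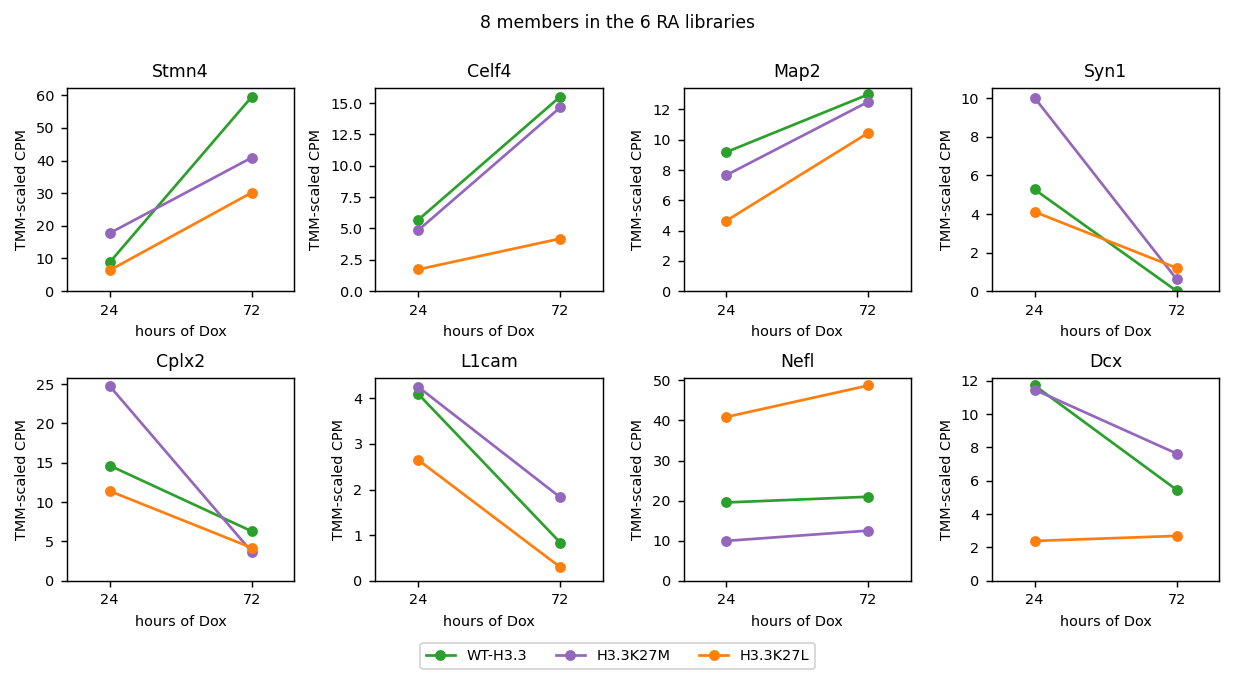
TMM-scaled CPM of 8 members in the 6 RA libraries at 24 and 72 h of Dox, with 1 point per library and lines joining separate libraries of the same line. Stmn4, Celf4 and Map2 are higher and Syn1, Cplx2 and L1cam lower at 72 h in all 3 lines, and Nefl is highest in H3.3K27L at both times.

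Stmn4 was at 8.79, 17.7 and 6.37 CPM in WT-H3.3, then H3.3K27M, then H3.3K27L at 24 h and at 59.5, 40.9 and 30.2 CPM at 72 h, a rise of 2.26 ± 0.26 (adjusted p = 7.14e-06). Celf4 went from 5.66, 4.84 and 1.72 CPM to 15.5, 14.7 and 4.19 CPM (1.77 ± 0.28, adjusted p = 1.08e-04). Map2 went from 9.18, 7.66 and 4.64 CPM to 13.0, 12.5 and 10.5 CPM (1.07 ± 0.25, adjusted p = 0.00194). Each of these genes was higher at 72 h in all 3 lines, though for Celf4 the ranges of the times overlapped. Syn1 fell by 2.98 ± 0.58 (adjusted p = 6.17e-04), from 5.27, 10 and 4.11 CPM to 0, 0.610 and 1.2 CPM. Cplx2 fell by 1.56 ± 0.31 (adjusted p = 7.33e-04), from 14.7, 24.8 and 11.4 CPM to 6.29, 3.66 and 4.19 CPM. L1cam fell by 1.57 ± 0.53 (adjusted p = 0.0189), from 4.10, 4.26 and 2.65 CPM to 0.839, 1.83 and 0.299 CPM. All 3 lower genes were lower in every line. L1cam lost its call without any of 3 libraries (-1.24 to -1.39) and in DESeq2 (adjusted p = 0.0730), and Map2 without either H3.3K27L library (0.91 and 0.95).

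Between lines in RA, 0 members were called for H3.3K27M by edgeR, beside 0.0163% of all genes (0.00817% in each direction). Of the 19 tested, 2 had an unadjusted p under 0.05, and DESeq2 called 0. Nefl had the lowest p, at 9.94 and 12.5 CPM in H3.3K27M against 19.5 and 21.0 CPM in WT-H3.3, 24 h before 72 h (-0.93 ± 0.22, adjusted p = 0.192), and was called without the 72 h library of WT-H3.3 (-1.02, adjusted p = 0.0118). Stx1a (0.72 ± 0.33, adjusted p = 0.807) and Nefm (-0.81 ± 0.42, adjusted p = 0.879) followed. A p that misses the threshold does not show that the lines were alike.

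For H3.3K27L, 3 of 19 members were called, 1 higher and 2 lower, beside 3.64% of all genes (1.5% higher and 2.13% lower), with a median of -0.53 over the members and 0.01 over all genes. Nefl rose by 1.11 ± 0.20 (adjusted p = 0.00850), at 40.9 and 48.7 CPM against 19.5 and 21.0 CPM in WT-H3.3. Celf4 fell by 1.82 ± 0.38 (adjusted p = 0.0149), at 1.72 and 4.19 CPM against 5.66 and 15.5 CPM. Dcx fell by 1.87 ± 0.41 (adjusted p = 0.0183), at 2.39 and 2.69 CPM against 11.7 and 5.45 CPM. The lines did not overlap for any of the 3 genes, which the calls nearly entail with 2 libraries a line. All 3 calls were lost when the Dox times were pooled (adjusted p = 1.00 for each), and Dcx also in DESeq2 (adjusted p = 0.0563) and without either 24 h library (-1.41 and -1.26), while Celf4 was lost without the H3.3K27L library of 72 h (-1.65, adjusted p = 0.0771). Chromosome 14, which holds Nefl, had a median log2 difference of 0.53 at 24 h and 0.44 at 72 h between H3.3K27L and WT-H3.3 over its genes, and its part in the Nefl difference was not tested. The extraembryonic endoderm markers summed to 7085 and 2045 CPM in H3.3K27L and to 3601 and 756 CPM in WT-H3.3, 24 h before 72 h. In the same order the pluripotent markers summed to 361 and 261 against 179 and 112 CPM, the oligodendrocyte lineage markers to 348 and 184 against 197 and 81.8 CPM, and the neural progenitor markers to 196 and 108 against 337 and 154 CPM. Means above 1 CPM in H3.3K27L and WT-H3.3 were reached by 8 and 8 extraembryonic endoderm and by 8 and 9 pluripotent markers. For the oligodendrocyte lineage they were 3 and 4, and for neural progenitors 5 and 4. The part of these marker lists was not tested either.

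The stage change from ESCs to RA was not called different from that of WT-H3.3 for any member in H3.3K27M (edgeR, 3 with an unadjusted p under 0.05, beside 0.00611% of all genes, all of them higher, and DESeq2 called 0) or in H3.3K27L (edgeR, 5 with an unadjusted p under 0.05, beside 0.208%, 0.141% higher and 0.0672% lower). For H3.3K27L, DESeq2 called 3, all lower: Celf4 (-2.29, adjusted p = 0.0317), Mapt (-1.28, adjusted p = 0.0285) and Syt1 (-5.07, adjusted p = 0.0370).

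In ESCs the lines, and WT-H3.3 with and without GSK343, were compared to see whether these genes differ before differentiation. Of the 31 members, 21 were tested; Dcx, Stmn4, Rbfox3, Syt1, Syt4, Snap25, Syp, Slc17a6 and Gad2 were too low, and Tubb3 lies on chromosome 8. For H3.3K27M over all Dox times (8 against 8 libraries) edgeR called 0 members, beside 0.0143% of all 14012 genes tested (0.00714% in each direction), 6 had an unadjusted p under 0.05 and DESeq2 called 0. Gap43 had 8.39 ± 3.11 CPM (SD, n = 8) in H3.3K27M and 5.54 ± 1.17 in WT-H3.3 (log2 fold change 0.62 ± 0.24, adjusted p = 0.309). Ina had 22.2 ± 4.89 and 28.6 ± 5.28 CPM (-0.35 ± 0.14, adjusted p = 0.337), and Stmn3 2.79 ± 1.67 and 4.59 ± 1.36 CPM (-0.78 ± 0.32, adjusted p = 0.345). All 3 overlapped between lines. Libraries of the same number and Dox time deviated together in these lines. Between them, Ina was lower in H3.3K27M in all 8 pairs (log2 differences of -0.02 to -0.66), and so was Stmn3 (-0.0010 to -1.88). Nefl (-0.09 to -1.72) and Nefm (-0.01 to -2.40) were lower in all 8 pairs as well. The share of all genes lower in all 8 pairs was not determined. The pairs are 4 Dox times of 2 replicates and not 8 separate repeats, so no conclusion is drawn from them. With the replicate as a block, Ina and Stmn3 were not called (adjusted p = 0.204 and 0.303). At 24 and 72 h alone (4 against 4), 0 were called, beside 0% of all genes, 1 had an unadjusted p under 0.05, DESeq2 called 0, and the lowest p were those of Gap43 (0.91 ± 0.34), Vamp2 (0.43 ± 0.22) and Ina (-0.37 ± 0.20), each with adjusted p = 0.992.

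For H3.3K27L over all Dox times 1 of 21 members was called, beside 3.43% of all genes (0.628% higher and 2.8% lower). Gad1 rose by 1.06 ± 0.30 (adjusted p = 0.0267). Its 3 deep replicate 2 libraries stood at 8.84, 8.85 and 7.83 CPM, whereas the 4 of replicate 1 stood between 3.15 and 4.01 CPM and those of WT-H3.3 between 1.02 and 4.22 CPM. The replicate numbers of this line did not pair with those of WT-H3.3. By number, the mean log2 difference from WT-H3.3 was 0.13 in replicate 1 and 1.95 in replicate 2. The size of the difference thus came from replicate 2. The call was lost in DESeq2 (adjusted p = 0.0652), in a fit of the 2 lines alone (adjusted p = 0.0767), in a replicate block with the H3.3K27L numbers crossed, a setting chosen after seeing the data (0.91, adjusted p = 0.00160), and without any of 8 single libraries (the 4 of WT-H3.3 replicate 2, the 3 deep ones of H3.3K27L replicate 2, and H3.3K27L replicate 1 at 72 h), with 0.85 (adjusted p = 0.0861) without H3.3K27L replicate 2 at 24 h. Without the shallow library it was kept (1.07, adjusted p = 0.0320). Tagln3 (-0.73 ± 0.18, adjusted p = 0.0108) did not reach the fold threshold and Stmn3 (0.92 ± 0.31, adjusted p = 0.0669) missed both. At 24 and 72 h alone 0 were called, beside 0.507% of all genes (0.0714% higher and 0.435% lower), 5 had an unadjusted p under 0.05, DESeq2 called 0, and the lowest p were those of Gad1 (1.12 ± 0.45, adjusted p = 0.340), Mapt (0.42 ± 0.18, adjusted p = 0.393) and Tagln3 (-0.61 ± 0.27, adjusted p = 0.397).

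**Figure D5:**
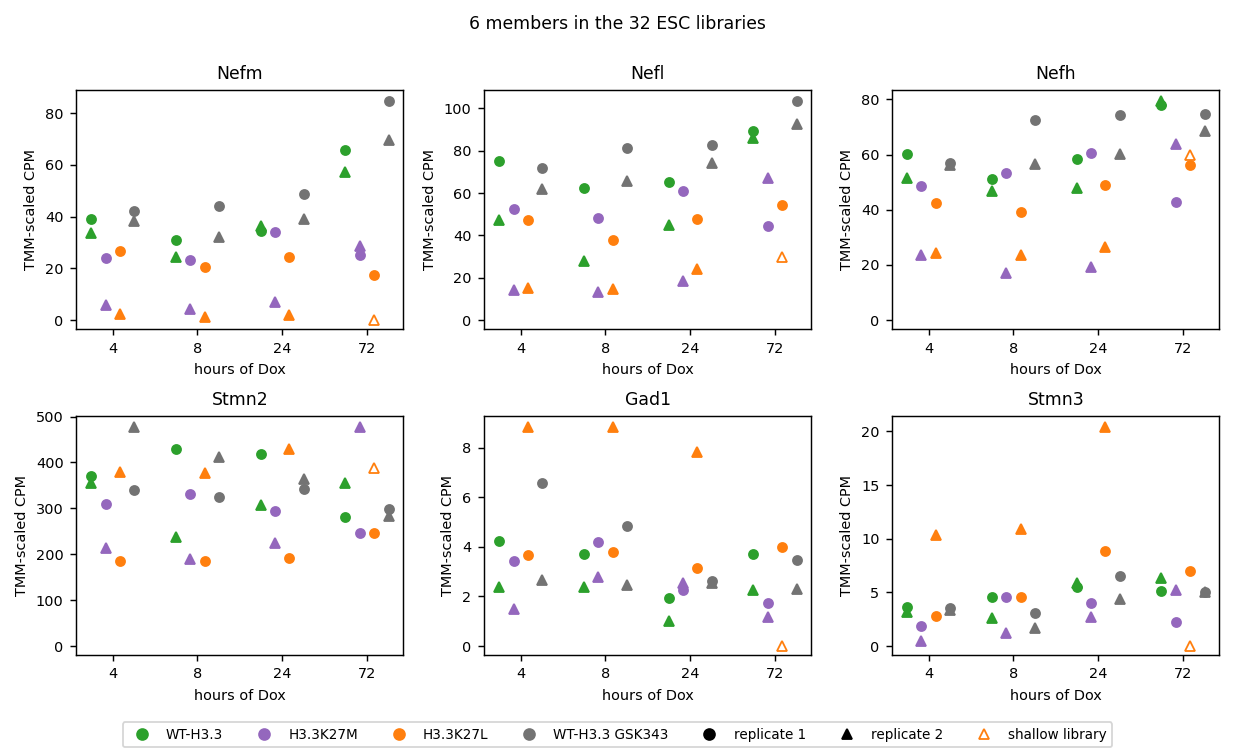
TMM-scaled CPM of 6 members in the 32 ESC libraries by hours of Dox; colours are lines or treatment, circles replicate 1, triangles replicate 2, and the open triangle the shallow library. Nefm is at 1.12 to 7.02 CPM in replicate 2 of both mutant lines at 4 to 24 h and at 17.4 CPM or above in the other deep libraries.

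Nefl, Nefm and Nefh also differed between replicates. Nefm in the WT-H3.3 ESCs ranged from 24.3 to 65.9 CPM over 8 libraries. In H3.3K27M, replicate 1 ranged from 23.3 to 34.0 CPM, and replicate 2 was at 5.95, 4.49, 7.02 and 28.7 CPM at 4, 8, 24 and 72 h. In H3.3K27L, replicate 1 ranged from 17.4 to 26.8 CPM and the deep libraries of replicate 2 were at 2.25, 1.12 and 2.15 CPM. Both mutant lines were thus below WT-H3.3 at 4 to 24 h in replicate 2 by far more than in replicate 1. The mean log2 difference from WT-H3.3 was -0.62 in replicate 1 and -2.0 in replicate 2 for H3.3K27M. In H3.3K27L it was -0.88 and -3.79. Chromosome 14, which holds Nefm and Nefl, had a median log2 difference from WT-H3.3 of 0.47 to 0.52 in the H3.3K27L libraries of replicate 1 and of 0.00 in the deep ones of replicate 2, and its part in the replicate difference was not tested. Over all libraries the fit gave Nefm -1.06 ± 0.48 (adjusted p = 0.397) in H3.3K27M and -1.51 ± 0.52 (adjusted p = 0.0781) in H3.3K27L. With the replicate as a block, Nefm was called in H3.3K27L (-1.95, adjusted p = 0.00676), beside Gad1. Nefl had mean log2 differences of -0.49 and -1.09 in H3.3K27M and -0.63 and -1.15 in H3.3K27L, replicate 1 before replicate 2, and Nefh of -0.26 and -1.04 and of -0.40 and -0.96. Ina departed from them, with -0.27 and -0.46 in H3.3K27M but -0.23 and 0.48 in H3.3K27L. The signs of the replicates differed for 6 of the 21 tested members in H3.3K27M and for 11 in H3.3K27L. These differences pair libraries by replicate number. H3.3K27L and WT-H3.3 libraries of the same number did not deviate together, so the H3.3K27L values are less firmly paired than those of H3.3K27M.

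GSK343 moved no member past the threshold in WT-H3.3 ESCs. Over all Dox times edgeR called 0 of 21, beside 0% of all genes, 0 had an unadjusted p under 0.05 and DESeq2 called 0, and at 24 and 72 h alone the same counts held. Gad1 had 3.43 ± 1.51 CPM (SD, n = 8) with and 2.69 ± 1.08 without the inhibitor (0.45 ± 0.30), Nefl 79.3 ± 13.9 and 62.3 ± 21.2 CPM (0.40 ± 0.31), and Cplx2 1.10 ± 0.628 and 0.658 ± 0.362 CPM (0.54 ± 0.42), each with adjusted p = 0.973. At 24 and 72 h alone Cplx2 (0.98 ± 0.63), Elavl4 (0.46 ± 0.32) and Gad1 (0.38 ± 0.43) had the lowest p, each with adjusted p = 1.00. The signs of the replicates differed for 12 of 21 members.

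With time in Dox, taken over all lines and treatments, 3 of 21 members were called at 72 h against 4 h, beside 4.04% of all genes (2.68% higher and 1.36% lower). Map2 rose by 1.35 ± 0.38 (adjusted p = 0.0143). Its 8 libraries of 4 h ranged from 1.5 to 7.16 CPM and the 7 deep libraries of 72 h from 4.51 to 11.3 CPM, and without the shallow library the rise was 1.16 (adjusted p = 0.0176). L1cam rose by 1.10 ± 0.26 (adjusted p = 0.00529), from 0.421 to 1.24 CPM at 4 h to 1.39 to 2.55 CPM in the deep libraries of 72 h, and lost its call without H3.3K27L replicate 2 at 4 h (0.94, adjusted p = 0.0212). Cplx2 fell by 2.49 ± 0.72 (adjusted p = 0.0170), from 0.281 to 1.49 CPM at 4 h to 0 to 0.576 CPM, at counts so low that DESeq2 set no adjusted p. L1cam and Cplx2 also lost their calls without H3.3K27L replicate 1 at 72 h, which leaves the shallow library alone (-0.71 and -2.49). Of 53 related genes tested, 5 were called higher and 0 lower.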

How the data were processed

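RNA-seq of 42 libraries was used out of 155 samples of the series, and the ChIP samples were not analysed here. The authors aligned reads with STAR 2.7.1 to mm9, per the submitters' processing notes, and deposited raw counts per gene, as 1 table per stage. The counter and its strand setting are not given in the sources used here, and neither is the library kit of each sample (QuantSeq 3′ or KAPA). All columns were mapped to samples by their names (0 unmapped), and in 2 OPC columns the replicate number differs from the sample title.

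Of 55471 genes, 32589 had a symbol in the reference name table and held 98.17% of counts. The 2532 genes of chromosome 8, with 5.849% of counts, were left out of the tests. Counts were tested with edgeR 4.0.16 (TMM factors, filter on low counts, quasi-likelihood F test, Benjamini-Hochberg adjustment over all genes) in R 4.3.3 with limma 3.58.1. The ESC fit held all 32 libraries, the RA fit had line and Dox time as terms, the OPC fit had line, and the stage comparisons and interactions came from 1 fit of 42 libraries, giving 18 comparisons. The RA term for Dox time departs from the methods, which pooled the times. Scripts ran in Python 3.11.15 (pandas 2.3.3, numpy 2.4.6, matplotlib 3.10.9) and were tested on simulated data. Counting intervals and floors cover counting error only.

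The members and all gene lists (related genes, cell type markers) were chosen with earlier results of these data known. Values are given for all members, and full statistics for called members. Where more than 12 were called, these are the 2 of lowest adjusted p per role and direction, and where fewer than 3 were called, the 3 of lowest p. Others were named because their call depended on a library or a setting, after their values were seen. Alternatives were DESeq2 1.42.0, its type of size factors, no filter on low counts, chromosome 8 kept, only the libraries or tables compared, pooled Dox times, the replicate block and leaving out each library. Replicates of ESCs were made weeks apart. No pair of libraries differed by so little as to be copies (smallest chi-square per gene 1.85). Same-numbered libraries deviated together between WT-H3.3 and H3.3K27M (correlation of deviations 0.326, 0.507, 0.354 and 0.355 at 4, 8, 24 and 72 h), but not between WT-H3.3 and H3.3K27L (-0.304, -0.520, -0.309 and 0.0928). Where nothing states separate cultures, p-values measure only the spread between these libraries.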

Additional observations from a re-analysis of the deposited data

Results flagged for a closer look

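The tests of a single library within a group covered 85 groups of 4 to 10 libraries, of which chance flags about 1 in 20, and 2 were found. Tubb3 was at 220.6 CPM in ESC H3.3K27M at 72 h, replicate 2, while the other 7 libraries of that line ranged from 43.0 to 118.5 CPM. Syn1 was at 9.85 CPM in ESC H3.3K27L at 24 h, replicate 2, below the other deep libraries of that line at 13.6 to 16.4 CPM.

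The difference between the lines H3.3K27M and WT-H3.3, which are also separate clones, was called different between OPCs and ESCs for 5 of 28 members. This interaction term in edgeR called 14.3% of all genes. On the log2 scale it was -7.44 for Stmn2, -4.79 for Syt4, -3.78 for L1cam, -2.90 for Gad1 and -1.996 for Stx1a. The calls of Gad1 and L1cam were lost without single libraries (-2.21 to -2.77 and -2.87). The fibroblast, pluripotent, extraembryonic endoderm and oligodendrocyte lineage markers, whose sums differed between the OPC lines, were measured in the same libraries. Their part in these differences was not tested.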

How the results depend on the processing

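The count of called members moved by more than 1.5 times under few settings, and the cause was not tested. Without the filter on low counts it was 1 instead of 0 for H3.3K27M in ESCs (all Dox times, and 24 and 72 h), 2 instead of 1 for H3.3K27L over all Dox times and 1 instead of 0 at 24 and 72 h, with Nefm gained each time. It was then 2 instead of 0 for the H3.3K27L interaction of RA and 9 instead of 5 for the H3.3K27M interaction of OPCs. DESeq2 gave 0 for H3.3K27L in ESCs and 3 for its RA interaction. A fit of the compared ESC libraries alone gave 0 for H3.3K27L, and pooled Dox times gave 0 for H3.3K27L in RA.

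The replicate block gave 2 for H3.3K27L in ESCs over all Dox times. It kept 0 for H3.3K27M, 3 for 72 h against 4 h and 16 for the OPC lines, gave 18 and 18 for RA against ESCs, 24 and 20 for OPCs, and 6 for the OPC interaction, where Ina was gained (1.01). The numbers of H3.3K27L and WT-H3.3 appeared crossed at 4 to 24 h. With them crossed, a setting chosen after seeing the data, 1 member was called over all Dox times and 1 at 24 and 72 h, Nefm both times, and Gad1 was lost over all Dox times (0.91).

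Leaving out 1 library at a time gave 0 to 3 calls for H3.3K27L in ESCs, 0 to 1 for H3.3K27M in RA and 11 to 19 for RA against ESCs at 72 h. The sign turned for 9 results, each without ESC H3.3K27L replicate 1 at 72 h, which leaves the shallow library alone. They ranged from -0.945 to 1.19 for Gad1 and -1.28 to 1.08 for Stmn3 (H3.3K27L, all Dox times), -2.88 to 1.39 for Gad1 and -5.30 to 0.54 for Mapt (24 and 72 h), -0.71 to 1.31 for L1cam (72 h against 4 h), -2.74 to 1.28 for Mapt and -2.07 to 1.39 for Elavl3 (RA against ESCs, 72 h, where Nefm also turned, to 0.58), and -1.75 to 4.45 for Mapt (H3.3K27L interaction of RA). With size factors of the DESeq2 type, Celf4, Map2 and Vamp2 were gained and Nefl was lost at 72 h of RA. Depth limits members in the shallow library, where 1 count is 14.9 CPM, and members under 1 CPM.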
